A study of Mus musculus with 8 samples.

Results

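Immediate early genes and other genes that neurons switch on with activity were followed in brain libraries from Akap11 conditional knockout (cKO) mice and from control mice. The set held 35 listed genes, all of which were found by symbol among the 57186 genes in the count tables, and all 35 passed the filter on low counts. Nothing measured in these libraries enters the rule for the set, although the list was drawn up with earlier results of these data known. Total RNA was sequenced from 4 cKO and 4 control libraries. The tissue is given as brain, without a region. The labels name no strain, age, sex, recombinase line, deleted exons or handling before dissection for either group, and do not say whether the controls carry a floxed allele or a recombinase. The labels do not tie libraries to mice, so the replicate error behind each p-value may be technical. Akap11 encodes an anchoring protein for protein kinase A (PKA), and the title of the series links this gene to psychiatric risk and to PKA homeostasis and synaptic transmission.

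When a neuron fires, calcium entering through NMDA receptors and voltage-gated calcium channels activates the MAP kinase, calmodulin kinase and PKA pathways. These phosphorylate transcription factors that already sit at promoters, chiefly CREB at cAMP response elements (CRE) and the SRF complex at CArG boxes. The fast genes need no new protein for this and are transcribed within minutes, and their messages decay quickly. Many encode transcription factors, which then drive delayed genes for secreted and synaptic proteins. The fast and delayed classes used here (26 and 9 genes) come from general knowledge, and some genes, such as Homer1 with its short and long isoforms, could be placed in either. Gene counts do not separate isoforms.

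The promoters of Fos, Nr4a1, Dusp1 and Rheb are shown as examples with several and with few CRE letters. They were chosen with their levels known. Each run is the 250 bases before the RefSeq start (build GRCm38.p6), 5′ to 3′. Capitals mark the CRE TGACGTCA, its first 5 letters TGACG or their complement CGTCA, the EGR site GCGNGGGCG on either strand, and the TATA box TATAAA on the gene's strand.
Fos, chr12:85473640-85473889, plus strand: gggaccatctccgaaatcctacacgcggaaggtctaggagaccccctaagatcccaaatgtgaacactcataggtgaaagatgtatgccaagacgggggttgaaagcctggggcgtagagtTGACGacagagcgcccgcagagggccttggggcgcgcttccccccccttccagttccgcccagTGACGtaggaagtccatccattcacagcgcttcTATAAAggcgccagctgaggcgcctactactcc
Nr4a1, chr15:101266596-101266845, plus strand: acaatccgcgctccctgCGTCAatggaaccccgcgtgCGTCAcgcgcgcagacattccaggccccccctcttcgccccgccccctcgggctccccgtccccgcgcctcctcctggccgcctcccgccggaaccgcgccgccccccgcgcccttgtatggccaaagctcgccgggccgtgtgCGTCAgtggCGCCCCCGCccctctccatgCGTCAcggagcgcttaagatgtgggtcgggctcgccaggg
Dusp1, chr17:26508473-26508722, minus strand: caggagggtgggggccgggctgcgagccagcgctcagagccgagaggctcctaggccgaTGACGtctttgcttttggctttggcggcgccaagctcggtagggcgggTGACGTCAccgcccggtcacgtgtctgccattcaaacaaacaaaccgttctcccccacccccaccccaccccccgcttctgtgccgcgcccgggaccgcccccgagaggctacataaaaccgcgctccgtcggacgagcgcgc
Rheb, chr5:24842362-24842611, minus strand: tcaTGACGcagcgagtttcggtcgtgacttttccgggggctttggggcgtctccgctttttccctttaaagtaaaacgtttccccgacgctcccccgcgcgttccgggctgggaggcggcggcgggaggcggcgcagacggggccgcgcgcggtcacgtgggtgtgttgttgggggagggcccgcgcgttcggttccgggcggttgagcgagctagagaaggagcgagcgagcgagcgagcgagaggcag
The Fos window holds TGACG at -66 and -129, counted from the start, and TATAAA at -33. The Nr4a1 window holds 4 copies, at -40, -69, -213 and -233, and an EGR site at -60. The Dusp1 window holds the full CRE at -143, which contains a TGACG match on each strand, and another TGACG at -191. The Rheb window holds a single TGACG far from the start, at -247.

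Windows of the same 250 bases were matched for 28 of the 35 genes, and TGACG on either strand was present in 21 of them (75.0%), 16 of 20 fast and 5 of 8 delayed genes. The same letters are in 19.79% of 27025 genes in the table and in 29.03% of the 12071 of these that were tested here. The full CRE was found in 3 of the 28, Dusp1, Btg2 and Maff, against 2.93% of the tested genes, and each full CRE also counts as TGACG. The EGR site was in 9 (32.1%, against 10.08% of tested genes). The AP-1 site TGANTCA was in 1 (3.6%, against 5.49%) and the CArG box of SRF in 2 (7.1%, against 1.42%). Genes with several starts, such as Egr2 and Bdnf, counted if any of their windows held the letters. The letters did not sort the matched genes by their correlation with Fos, described further on: TGACG was in 7 of the 10 matched genes that passed that test and in 13 of the 17 that did not. Of the 15 genes that passed, Arc, Egr1, Egr3, Sik1 and Trib1 had no window and were not searched. Dusp6, Fosl2 and Jun passed without TGACG, and Homer1, with r near 0, has 3 copies in 1 of its windows. A match shows letters in a window, and it was not tested whether a factor binds there.

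Reads in genes numbered 13841218 to 19991942 in cKO and 15752877 to 19818313 in control libraries. The targeted gene Akap11 had 228 ± 12.7 CPM (the TMM-normalised read count, relative to library size) in cKO and 322 ± 35.3 CPM in control brain (SD, n = 4 each), and every cKO library lay below every control library. The log2 fold change was -0.50 (SE 0.069, edgeR adjusted p 0.0103). The call was lost without cKO replicate 2 (-0.47, edgeR adjusted p 0.104) and without control replicate 2 (-0.52, edgeR adjusted p 0.0618). Neuron, glial and endothelial markers were detected. No listed marker was at 0 in every library, but the mural marker Tagln was at 0 in 5 of the 8 and reached at most 0.1 CPM, too low to be tested. The share of listed reads assigned to genes was 63.8% in cKO replicate 1, 73.9% to 79.7% in cKO replicates 2 to 4 and 73.7% to 74.9% in control libraries, and cKO replicate 1 stood apart on the leading principal component. Control replicate 1 stood apart on the next component. In bulk RNA a lower number of cells of a type and less RNA per cell cannot be told apart.

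Many of the fast genes, 13 of the 25 other than Fos, varied with Fos from library to library by the correlation test given further on, and the high and low libraries came from both groups. Fos, the partner of Jun proteins in the AP-1 factor, had 45.5, 50.1, 30.7 and 35.6 CPM in cKO replicates 1 to 4, against 28.8, 49.2, 21.6 and 26.7 CPM in control replicates 1 to 4. The high libraries were cKO replicates 1 and 2 and control replicate 2, the lowest was control replicate 3, and the groups overlapped. Within the control group alone the highest library exceeded the lowest 2.28-fold, which is more than the 1.28-fold ratio of the cKO mean to the control mean.

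Nr4a1, an orphan nuclear receptor (Nur77), had the same 3 highest libraries. Its level was 160, 172, 87.1 and 117 CPM in cKO replicates 1 to 4, against 79.9, 152, 66.0 and 89.4 CPM in control replicates 1 to 4. Control replicate 2 stood above cKO replicates 3 and 4, and control replicate 3 was again the lowest of all. Egr2, the most variable of the EGR zinc finger factors, had 13.7, 15.9, 9.33 and 9.66 CPM in cKO replicates 1 to 4, against 7.15, 19.4, 5.95 and 8.07 CPM in control replicates 1 to 4. Its highest library of all 8 was a control, control replicate 2, at 3.26 times the lowest control. Egr1, the most abundant of the set per transcript length (72.7 CPM per kilobase of its longest annotated transcript, averaged over the 8 libraries), had 362, 394, 279 and 334 CPM in cKO replicates 1 to 4, against 292, 405, 242 and 300 CPM in control replicates 1 to 4. Here too control replicate 2 was highest and control replicate 3 lowest. Egr3 and Egr4 ran from 156 to 200 and from 24.5 to 44.7 CPM in cKO, against 158 to 198 and 25.2 to 36.7 CPM in control libraries.

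Junb, an AP-1 subunit that tempers Jun, had 77.2, 96.4, 53.5 and 64.5 CPM in cKO replicates 1 to 4, against 59.9, 79.4, 46.9 and 48.8 CPM in control replicates 1 to 4. The same cKO replicates 1 and 2 and control replicate 2 were the 3 highest. Junb lies across from Prdx2, and Dusp1 across from Ergic1, on the opposite strand. Prdx2 held 17936 reads over all libraries against 9323 for Junb, and Ergic1 17643 against 5775 for Dusp1, so with an unstated strand setting reads where they overlap cannot be told apart. Fosb and Jun moved less, from 18.2 to 25.8 and from 48.1 to 68.3 CPM in cKO, against 15.8 to 25.1 and 49.4 to 57.9 CPM in control libraries. Atf3 and Maff were close to the detection limit, with 17 to 24 and 14 to 22 reads per cKO library, against 16 to 31 and 5 to 21 reads per control library.

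**Figure D1:**
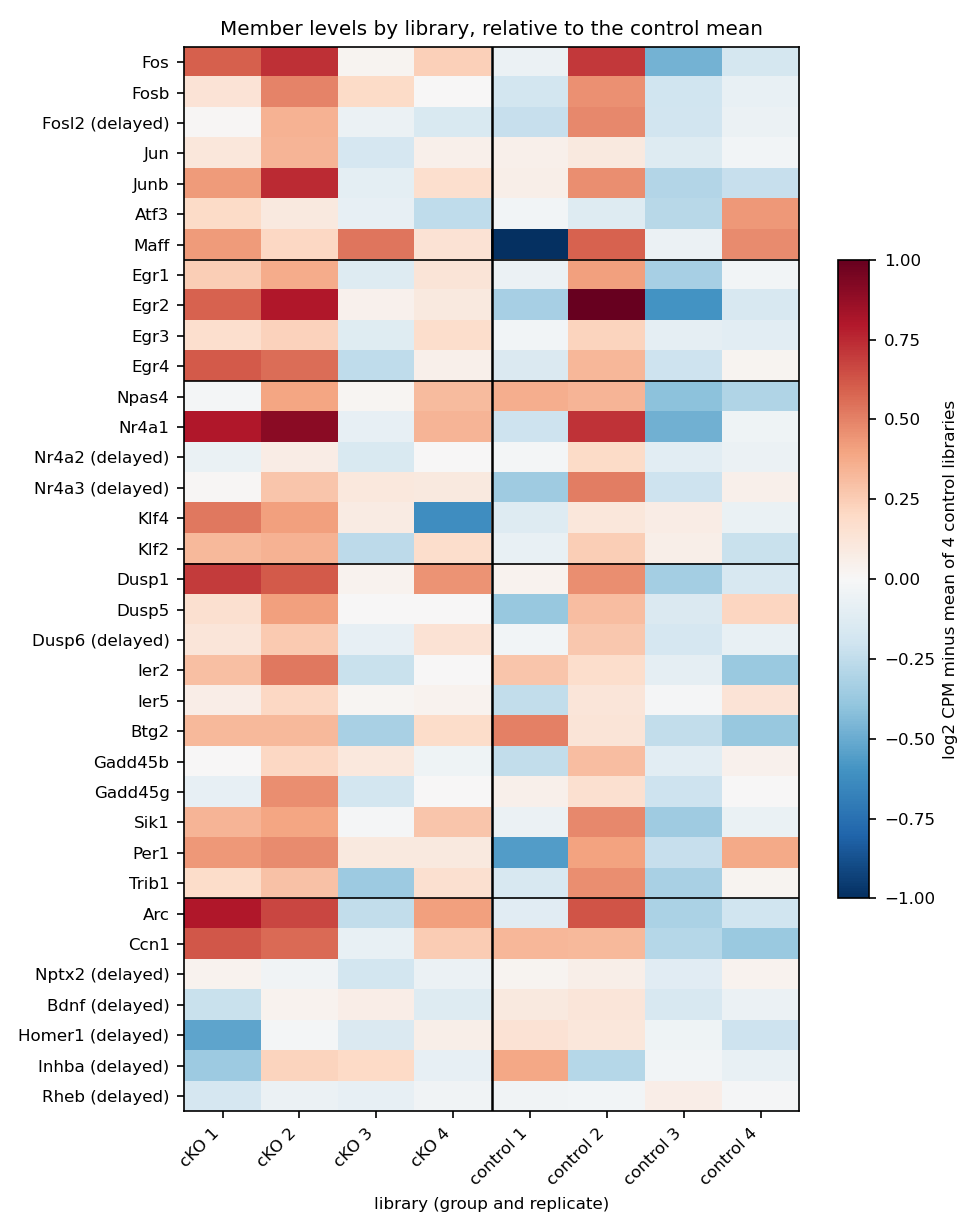
Level of each of the 35 genes (rows, grouped by role) in each library (columns, 4 cKO left and 4 control right), as log2 CPM minus that gene's mean over the control libraries. Colours end at 1 and -1. Most fast genes are red in cKO replicates 1 and 2 and in control replicate 2 and blue in control replicate 3, while most delayed genes stay near 0.

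Arc, a postsynaptic protein that helps internalise AMPA receptors, had 302, 275, 146 and 229 CPM in cKO replicates 1 to 4, against 160, 267, 138 and 150 CPM in control replicates 1 to 4. Control replicate 2 lay beside the high cKO libraries, and cKO replicate 3 beside the low controls. Npas4, a factor induced selectively by calcium in neurons, was flatter and ordered differently, with 21.9, 29.2, 22.4 and 27.5 CPM in cKO replicates 1 to 4, against 28.6, 28.0, 16.6 and 18.0 CPM in control replicates 1 to 4. Control replicate 1, low for Fos and Nr4a1, was among the highest for Npas4.

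The feedback genes shut the response down again. Dusp1, a phosphatase that inactivates MAP kinases, had 55.3, 52.1, 34.9 and 46.5 CPM in cKO replicates 1 to 4, against 34.8, 47.1, 26.8 and 30.5 CPM in control replicates 1 to 4. Of the 4 control libraries, only control replicate 2 reached the level of the 3 higher cKO libraries. Sik1, a kinase that holds back the CREB coactivators, had 23.1, 24.1, 18.2 and 22.2 CPM in cKO replicates 1 to 4, against 17.6, 25.5, 14.2 and 17.5 CPM in control replicates 1 to 4. Control replicate 2 was the highest of all 8 for Sik1. Ccn1, a secreted matrix protein also made by vascular cells, had 11.2, 10.7, 6.88 and 8.63 CPM in cKO replicates 1 to 4, against 9.11, 9.09, 5.90 and 5.56 CPM in control replicates 1 to 4.

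Per1, a clock gene that CREB also induces, had 133, 137, 106 and 106 CPM in cKO replicates 1 to 4, against 67.1, 131, 84.3 and 128 CPM in control replicates 1 to 4. Control replicate 4, low for Fos, was high for Per1. The median of 15 other clock genes, relative to the control mean, lay between -0.08 and 0.06 log2 units over the 8 libraries, and 0 of them passed the test between groups. The list mixes genes of opposite phase, such as Bmal1 and Per2, so this median cannot show a difference in time of day, which was not tested. Per2, like Dbp chosen after its values were seen, lay between 28.5 and 38.2 CPM in cKO and between 30.2 and 34.4 CPM in control libraries, and Dbp, an output gene of the clock, between 27.5 and 36.7 CPM in cKO and between 26.4 and 31.5 CPM in control libraries.

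Among the delayed genes, Homer1, a postsynaptic scaffold, had 173, 246, 224 and 260 CPM in cKO replicates 1 to 4, against 274, 268, 241 and 215 CPM in control replicates 1 to 4. Its lowest library was cKO replicate 1, one of the 3 highest for Fos. Bdnf, a neurotrophin, had 25.3, 30.3, 30.9 and 27.0 CPM in cKO replicates 1 to 4, against 31.6, 32.0, 26.5 and 28.4 CPM in control replicates 1 to 4. Nptx2, a secreted pentraxin that clusters AMPA receptors, had 57.4, 54.7, 49.4 and 54.0 CPM in cKO replicates 1 to 4, against 57.0, 58.3, 51.8 and 57.5 CPM in control replicates 1 to 4. Both groups overlapped for each of these 3 genes, and the order of the libraries differed from that of Fos. Rheb, a small GTPase that activates mTORC1, was the steadiest, with 106, 114, 112 and 116 CPM in cKO replicates 1 to 4, against 116, 117, 125 and 118 CPM in control replicates 1 to 4. It was the only one of the 35 whose groups did not overlap, the highest cKO library (115.7 CPM) lying just under the lowest control (115.9 CPM). All cKO libraries lay below all control libraries for 1.39% of the tested genes, and above them for 1.57%, which held none of the 35.

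The remaining genes are described by their range over libraries. Trib1, a pseudokinase, ran from 17.3 to 27.3 CPM in cKO and from 17.7 to 30.6 CPM in control libraries, with control replicate 2 again highest (r with Fos 0.851). Fosl2, an AP-1 subunit, ran from 45.8 to 64.9 CPM in cKO and from 43.6 to 71.2 CPM in control libraries. The nuclear receptor Nr4a3 ran from 40.1 to 48.3 CPM in cKO and from 31.2 to 56.7 CPM in control libraries, and like Fosl2 it peaked in control replicate 2. Nr4a2 was steadier, from 51.4 to 60.3 CPM in cKO and from 53.2 to 65.4 CPM in control libraries. The MAP kinase phosphatases Dusp5 and Dusp6 ran from 11.8 to 15.8 and from 59.9 to 76.1 CPM in cKO, against 9.05 to 14.7 and 56.5 to 76.6 CPM in control libraries. Ier5 ran from 64.6 to 73.6 CPM in cKO and from 53.8 to 70.3 CPM in control libraries, and Btg2, an antiproliferative gene, from 15.7 to 24.6 CPM in cKO and from 15.0 to 27.8 CPM in control libraries. The 6 genes Ier2, Klf2, Klf4, Gadd45b, Gadd45g and Inhba stayed between 4.18 and 18.1 CPM in cKO and between 5.93 and 15.8 CPM in control libraries. All of these had overlapping groups.

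**Figure D2:**
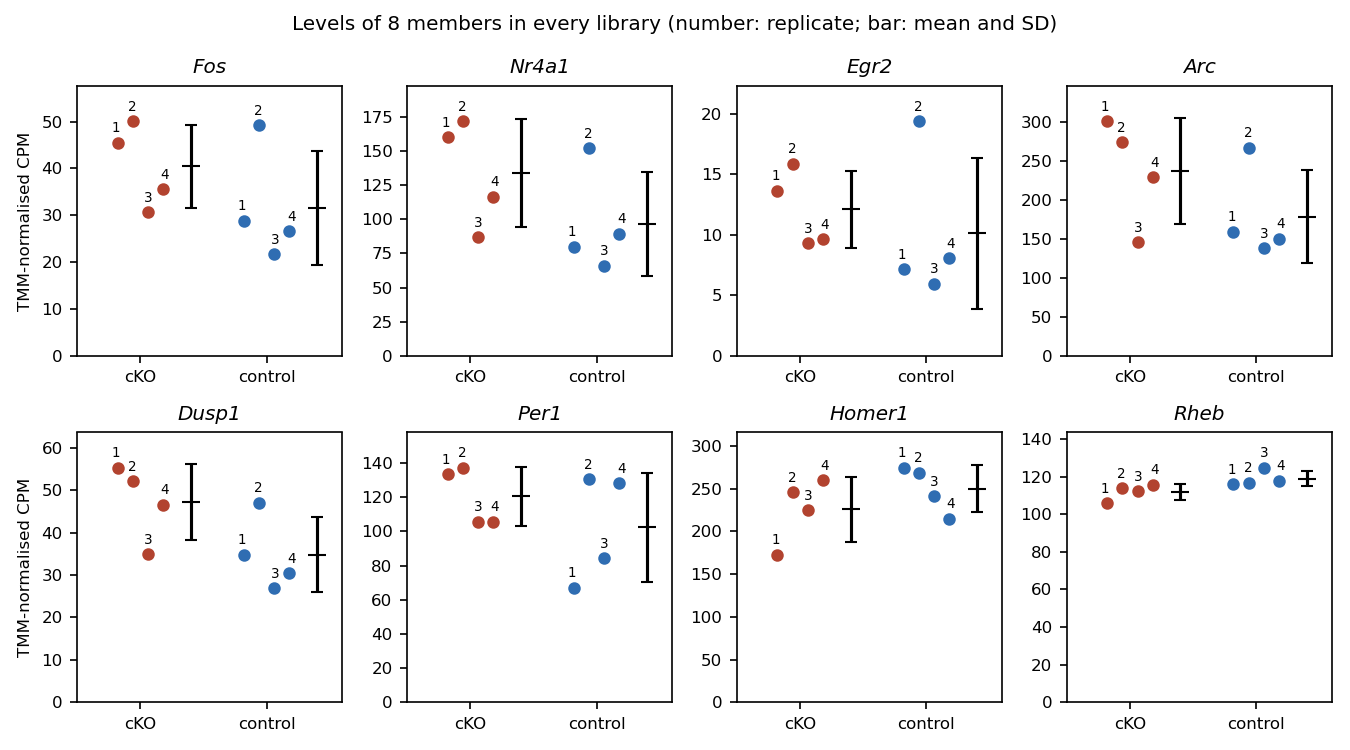
TMM-normalised CPM of 8 genes in each library, 4 cKO and 4 control, with the replicate number above each point and the mean and SD beside each group. For Fos, Nr4a1, Egr2 and Arc control replicate 2 lies with cKO replicates 1 and 2, and for Rheb all libraries lie between 106 and 125 CPM.

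To put the co-movement in numbers, each other gene was correlated with Fos over the 8 libraries on log2 CPM, with two-sided exact permutation over all 40320 pairings and Benjamini-Hochberg adjustment over the 34 correlations. The widest gap between neighbouring libraries for Fos was 35.6 to 45.5 CPM, below cKO replicates 1 and 2 and control replicate 2, and the next was 21.6 to 26.7 CPM. Leaving out the 2 libraries farthest from the median of Fos, as done further on, keeps cKO replicate 1 and control replicate 2. It therefore does not remove the wider gap, and the part of that gap in the correlations was not tested. The correlations share their libraries and depth. By Pearson's r, 15 of 34 passed an adjusted exact p of 0.05, 13 of 25 fast and 2 of 9 delayed genes, all of them positive. By Spearman's rho 9 passed, 8 fast and 1 delayed. The median r was 0.79 for the fast and 0.411 for the delayed genes, against -0.01 over all 16765 other genes tested. On deviations from the group means the medians were 0.779 for the fast and 0.724 for the delayed genes, so the gap between the class medians was small within groups. Among the delayed genes, Nptx2 had r = 0.736 and Nr4a2 r = 0.905 on those deviations, against 0.411 and 0.694 on the levels. Dusp6 (0.948), Fosl2 (0.877) and Nr4a3 (0.724) were also high on the deviations. The other delayed genes were not, with 0.375 for Bdnf, 0.114 for Homer1, -0.369 for Inhba and -0.477 for Rheb. The lowest fast gene was Atf3, at 0.169. An r of at least 0.8 was reached by 41.2% of the 34 genes and by 0.787% of all other genes tested.

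The closest to Fos was Nr4a1, with r = 0.977 (exact p 0.0005, adjusted 0.0039) and rho = 0.905 (exact p 0.0046, adjusted 0.026). Without the 2 libraries farthest from the median of Fos, cKO replicate 2 and control replicate 3, its r was 0.956. Sik1 had r = 0.974 (exact p 7.44e-05, adjusted 0.0025) and rho = 0.976 (exact p 0.0004, adjusted 0.0067), and r = 0.963 without those 2 libraries. Egr1, Egr2, Junb, Dusp1 and Arc had r from 0.939 to 0.966, and from 0.906 to 0.955 without them. Dusp6, a phosphatase of ERK counted here as delayed, had r = 0.948 (exact p 0.00094, adjusted 0.0046) and rho = 0.881 (exact p 0.0072, adjusted 0.031). Taken as deviations from the group means, the values gave r = 0.97 for Nr4a1, 0.967 for Sik1 and 0.948 for Dusp6. Without control replicate 3 the number that passed was 5, and without cKO replicate 2 it was 9. Arc and Dusp1 had r of 0.938 and 0.921 without control replicate 3 while their adjusted exact p (0.057 each) missed the threshold.

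Other genes of the set followed Fos loosely or not at all. Npas4 had r = 0.688 (exact p 0.067, adjusted 0.099), or 0.367 without the 2 farthest libraries, and Per1 had r = 0.676 (exact p 0.066, adjusted 0.099), or 0.518 without them. Bdnf had r = 0.19 (exact p 0.644, adjusted 0.684), Homer1 r = -0.09 (exact p 0.842, adjusted 0.842) and Rheb r = -0.634 (exact p 0.082, adjusted 0.112). With 8 libraries such values do not show that these genes are unrelated to Fos. The non-members with the most similar pattern were Wdr74 (r = 0.943), Fbn2 (0.938), Slc25a34 (0.927), Csrnp1 (0.922), Ccdc107 (0.919), Dgcr6 (0.916), Rbp4 (0.912) and Tle1 (0.907), given as a description over the 8 libraries. Only Csrnp1, a transcription factor, is on the list of other activity-induced genes.

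**Figure D3:**
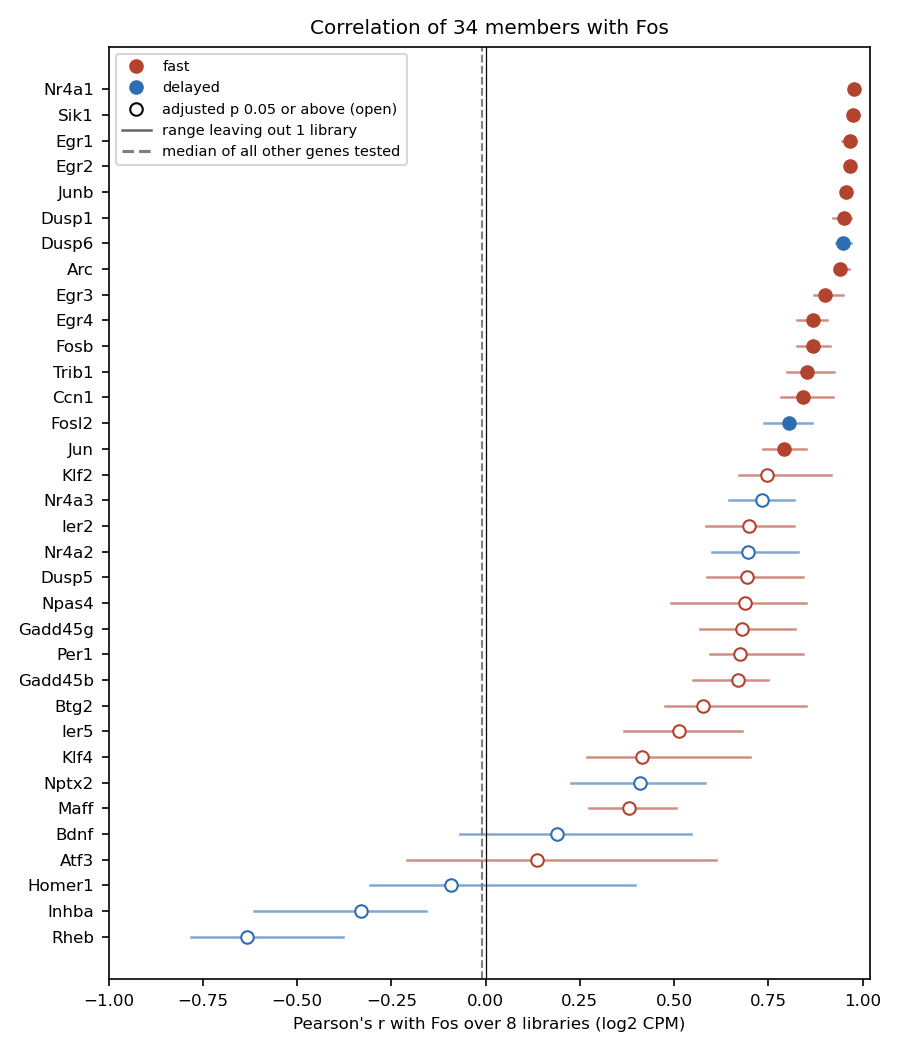
Pearson's r of 34 genes with Fos over the 8 libraries (points, red fast and blue delayed, filled where the adjusted exact p is under 0.05), with the range when 1 library is left out (lines). The dashed line is the median of all other genes tested, -0.01, and 15 genes are filled, from Jun at 0.79 to Nr4a1 at 0.977.

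By class, the libraries differed more in the fast than in the delayed genes. The median of the 26 fast genes, relative to each gene's control mean, stood at 0.33, 0.41, -0.07 and 0.14 log2 units in cKO replicates 1 to 4, against -0.07, 0.34, -0.24 and -0.06 in control replicates 1 to 4. The median of the 9 delayed genes stood at -0.07, 0.07, -0.08 and -0.04 in cKO replicates 1 to 4, against -0.02, 0.12, -0.12 and -0.06 in control replicates 1 to 4. The span over libraries was 0.65 for the fast and 0.23 for the delayed genes, or 0.61 and 0.26 with Nr4a2, Nr4a3 and Homer1 counted as fast. The difference between the classes was not tested.

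Ranks were counted within each group. Among the cKO libraries, replicate 2 was highest for 18 and replicate 1 for 7 of the 26 fast genes, and replicate 3 was lowest for 19. Among the control libraries, replicate 2 was highest for 20 of the 26 and replicate 3 lowest for 15. The delayed genes split differently in cKO, where replicate 1 was lowest for 5 of 9. That library also had the lowest share of listed reads in genes (63.8%) and stood apart on the leading principal component. Its part in this split was not tested. Around the group means, 17 of the 20 fast genes with a mean of at least 10 CPM had an SD of log2 CPM above 0.183, the 90th percentile of the 10367 tested genes at that level, as did 4 of the 9 delayed genes. Egr2 (SD 0.591), Nr4a1 (0.484), Arc (0.448) and Fos (0.423) were the most variable of these, and Rheb (0.052) the least.

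Set against this spread, no gene of the 35 passed the test between cKO and control brain. By edgeR's quasi-likelihood test 0 passed an adjusted p of 0.05, where 0.0239% of the 16766 genes tested did, and the lowest adjusted p among the 35 was 0.889. An unadjusted p under 0.05 was reached by 0 of them, where 4.78% of all genes tested reached it. DESeq2 and limma voom also called 0 at either level.

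The fold changes of the fast genes lay mostly above 0. The log2 fold change (cKO minus control) was positive for 25 of 26 fast and 4 of 9 delayed genes, 29 of 35 in all, against 51.2% of all genes tested. The median was 0.16 for the fast and -0.04 for the delayed genes, against 0.0034 over all genes tested. Since many of the fast genes rise and fall together, these counts are not 26 separate observations. By role, medians were 0.20 for 7 AP-1 and related factors, 0.21 for 4 EGR factors, 0.15 for 6 other transcription factors, 0.11 for 11 feedback genes and -0.06 for 7 synaptic and secreted effectors.

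The largest log2 fold change was that of Nr4a1, at 134 ± 39.3 CPM in cKO and 96.8 ± 38.0 CPM in control brain (SD, n = 4 each), at 0.47 (95% interval -0.36 to 1.30, edgeR adjusted p 0.889). Dusp1 had the lowest p, with 47.2 ± 8.96 CPM in cKO and 34.8 ± 8.80 CPM in control brain and a log2 fold change of 0.44 (95% interval -0.02 to 0.91, edgeR unadjusted p 0.0595). Arc stood at 0.41 (-0.35 to 1.17), Fos at 0.36 (-0.35 to 1.07), Ccn1 at 0.34 (-0.04 to 0.72) and Junb at 0.32 (-0.27 to 0.90). The intervals of Fos, Arc and Nr4a1 include both no change and a doubling, so at this spread neither can be told from the other.

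Of the delayed genes followed singly, Rheb stood at -0.09 (95% interval -0.20 to 0.03), Nptx2 at -0.06 (-0.20 to 0.08), Bdnf at -0.06 (-0.24 to 0.12) and Homer1 at -0.14 (-0.41 to 0.12), all with an edgeR adjusted p of at least 0.889. Egr2 at 0.27 (-0.75 to 1.29), Sik1 at 0.23 (-0.07 to 0.54), Per1 at 0.23 (-0.36 to 0.82), Npas4 at 0.16 (-0.26 to 0.58) and Egr1 at 0.14 (-0.26 to 0.55) completed the genes followed singly. Without cKO replicate 1, the library that stands apart, 29 of 35 were again positive, with medians of 0.13 for the fast and -0.01 for the delayed genes.

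**Figure D4:**
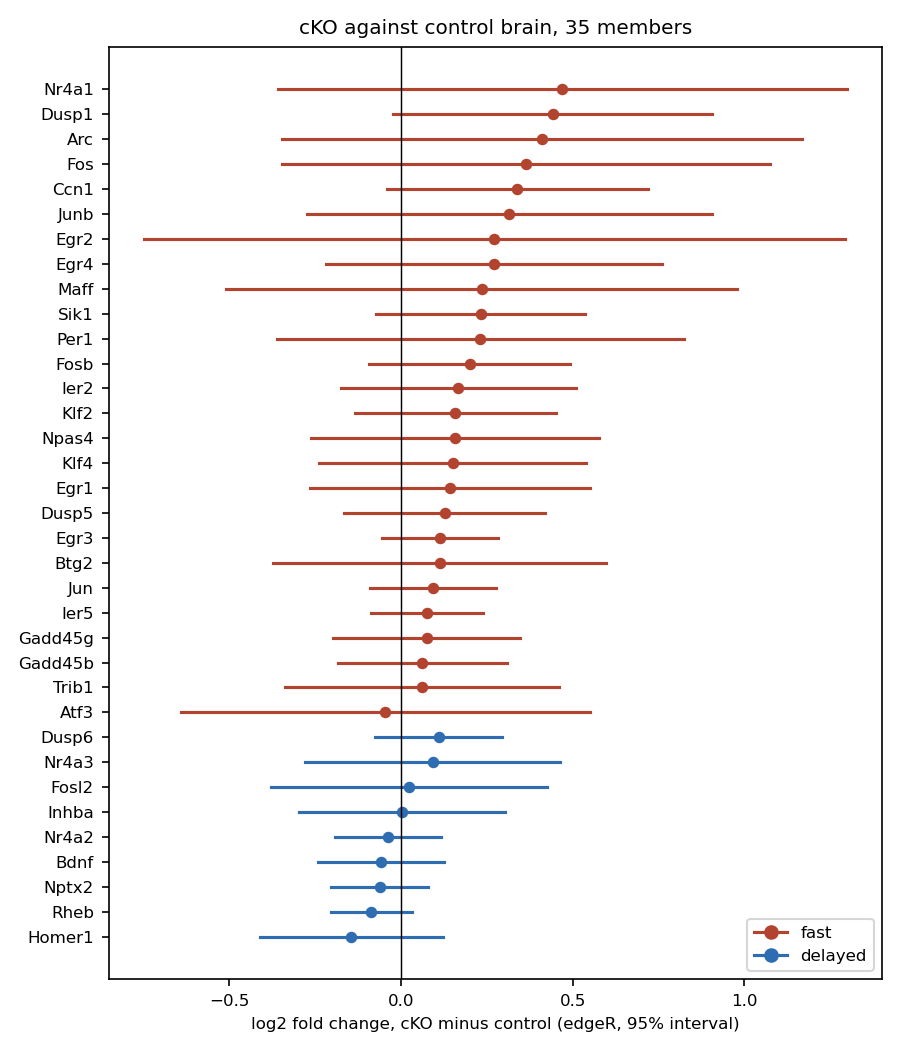
Log2 fold change of each gene, cKO minus control, from edgeR (points) with its 95% interval (lines), red for 26 fast and blue for 9 delayed genes. All 35 intervals cross 0, and 25 of the 26 fast genes have a point above 0.

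The comparison depended on single libraries, control replicate 2 among them. Without control replicate 2, an edgeR unadjusted p under 0.05 was reached by 13 of the 35 genes, all higher in cKO, against 4.2% of all genes tested in that fit, and 0 passed after adjustment (lowest adjusted p 0.936). That library was the highest control for 20 of the 26 fast genes, so leaving it out lowers their control mean. Many of these genes move together, so the 13 are not separate observations. In that fit, the log2 fold change was 0.65 for Fos, 0.77 for Nr4a1, 0.67 for Arc, 0.62 for Dusp1 and 0.77 for Egr2. Leaving out cKO replicate 3 instead gave 6 genes with an edgeR unadjusted p under 0.05, against 5.36% of all genes tested. All 6 were higher in cKO, and Fos stood at 0.47 and Nr4a1 at 0.63. The opposite came without control replicate 3, the lowest library, where Fos stood at 0.21 and Nr4a1 at 0.32, or without cKO replicate 2, the highest cKO library, where Fos stood at 0.24, Nr4a1 at 0.32 and 24 of 35 genes were positive. The labels give no reason to leave out any of these libraries.

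Markers of cell types and regions were set beside the 3 libraries with high Fos. The 7 neuron markers summed to 5804 and 6223 CPM in cKO replicates 1 and 2 and 6417 CPM in control replicate 2, within 5804 to 6448 CPM over the cKO and 6328 to 6923 CPM over the control libraries. The 6 excitatory neuron markers summed to 2331 and 2394 CPM in cKO replicates 1 and 2 and 2342 CPM in control replicate 2, and to 2074 CPM in control replicate 3, the lowest of all libraries for these and for Fos. The highest sum, 2420 CPM, was in control replicate 1, where Fos was low. The 5 cerebellar markers summed to 206 CPM in control replicate 2, against 162 to 182 CPM in cKO and 167 to 186 CPM in the other control libraries. Most of that sum was Calb1, at 150 CPM in control replicate 2 and 153 CPM in control replicate 1. Cbln1 (31.6 CPM), Car8 (19.7 CPM) and Gabra6 (4.5 CPM, at most 0.92 CPM elsewhere) were highest of all libraries in control replicate 2. Calb1 and Pcp2 were not. The 9 endothelial and mural cell markers, of interest for Klf2, Klf4 and Ccn1, ran from 256 to 272 CPM in cKO and from 255 to 291 CPM in control libraries. Choroid plexus markers ran from 396 to 645 CPM in cKO and from 471 to 657 CPM in control libraries, and the 7 striatal markers from 711 to 834 CPM in cKO and from 757 to 809 CPM in control libraries. The part of any of these in the level of the immediate early genes was not tested.

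Other genes of the activity response were also tested. Of 25 other activity-induced genes, 24 were tested, 0 passed and their median log2 fold change was 0.02. Of the 24, 1 reached an unadjusted edgeR p under 0.05, lower in cKO, where 4.78% of all genes tested reached that level. That gene was Ptgs2, which encodes the inducible cyclooxygenase, at 10.6 ± 1.68 CPM in cKO and 13.04 ± 1.95 CPM in control brain (log2 fold change -0.29, edgeR adjusted p 0.889). Nfil3, a bZIP repressor, stood at 0.23 and Cebpb at 0.30. Per library, the median of the 24 genes was highest in cKO replicate 2 (0.11 log2 units above the control mean) and control replicate 2 (0.09) and lowest in control replicate 3 (-0.09). In cKO replicate 1, which was also high for Fos, the median was 0.009.

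Of 33 genes for the kinases, channels, receptors and factors upstream, 0 passed, and 5 reached an unadjusted edgeR p under 0.05 (4.78% of all genes tested did), 2 higher and 3 lower, with a median log2 fold change of -0.03. The lowest p-values belonged to Mapk3, encoding the MAP kinase ERK1, at 154 ± 13.2 CPM in cKO and 136 ± 2.31 CPM in control brain (0.17), Mef2a (-0.18) and Map2k2 (0.17), with edgeR adjusted p of 0.889 each. Mapk3 was 172 CPM in cKO replicate 1, the highest of all libraries, and 142 to 151 CPM in the other cKO libraries. Glucocorticoid-induced genes, which share Per1 and Dusp1 as targets, gave 0 of 11 past the threshold and a median of -0.03, with Cdkn1a, a cell cycle inhibitor, at -0.26, Sgk1 at -0.17 and Fkbp5 at -0.16. Of the 11, Cdkn1a alone reached an unadjusted edgeR p under 0.05 (edgeR adjusted p 0.889), where 4.78% of all genes tested reached that level.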

How the data were processed

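RNA of 8 mouse brain libraries (4 cKO, 4 control, grouped by title) was extracted with the RNeasy Mini Kit, per the labels' protocols. The authors deposited raw counts, 1 whole number for each Ensembl gene. HISAT2 and build GRCm39 are named in the submitters' processing notes; for the counting program, its strand setting and the annotation, the sources used here give nothing. Rows that name no gene (20.3% to 36.2% of listed reads) stayed out. Symbols came from a supplied gene name table and RefSeq; GENCODE M21 gave GC content, transcript lengths and overlapping genes. The promoters come from RefSeq, GRCm38.p6.

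Genes were filtered with filterByExpr (16766 kept), scaled by TMM and tested with edgeR 4.0.16 (quasi-likelihood, robust, group only) under R 4.3.3. P-values were adjusted by Benjamini-Hochberg across every gene kept, and 0.05 was the threshold. The fit was tested on simulated data. Log2 CPM used a prior count of 2. Alternatives were DESeq2 1.42.0, limma 3.58.1 voom, other scalings and filters, GC-content offsets, the replicate number as a block and libraries left out. The genes and lists were chosen with earlier results of these data known. Genes with values in every library were Fos, Arc, Npas4, Egr1, Egr2, Junb, Nr4a1, Dusp1, Bdnf, Homer1, Nptx2, Rheb, Per1, Ccn1 and Sik1. Other lists gave up to 3 genes of lowest p (1 result is not reported here), and the 8 non-members most like Fos had a mean of at least 1 CPM.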

Additional observations from a re-analysis of the deposited data

Results flagged for a closer look

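In 3 of the 70 groups of 4 libraries examined (35 genes in 2 groups), 1 library lay far from the other 3 by Dixon's criterion, which chance meets in about 1 group in 20. All 3 concerned control replicate 2. Fosb had 25.1 CPM there, against 15.8 to 17.3 CPM in the other control libraries. Egr2 had 19.4 CPM there, against 5.95 to 8.07 CPM in the others. Arc had 267 CPM there, against 138 to 160 CPM in the others. The genes move together, so these are not 3 separate events.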

How the results depend on the processing

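The count of the 35 genes past the adjusted threshold was 0 as reported and in all 17 alternatives (34 genes were tested with a mean CPM of at least 1), as were the counts in the lists of other activity-induced and of upstream genes. Genes with an unadjusted p under 0.05 numbered 0 as reported, where 4.78% of all genes tested reached it. With library totals alone there was 1, higher in cKO (4.88% of all genes in that fit). With no low-count filter there were 4, 3 of them higher (5.15% of all genes). With GC-content offsets there was 1, lower in cKO (4.75% of all genes). In that fit the median log2 fold change was 0.11 for the fast and -0.02 for the delayed genes. Genes with an unadjusted p under 0.05 numbered 0 to 13 over the fits that leave out 1 library, against 2.73% to 7.22% of all genes. Over those fits Akap11 ranged from -0.55 to -0.42 and lost its call without cKO replicate 2 (-0.47, edgeR adjusted p 0.104) and without control replicate 2 (-0.52, 0.0618). Leaving out 1 library gave 24 to 30 positive genes and medians of 0.08 to 0.28 for the fast and -0.08 to -0.01 for the delayed genes. The count of correlations with Fos past the threshold ranged from 5 to 16. Without cKO replicate 1 and control replicate 1 together, Bdnf (0.0251) and Homer1 (0.013) changed sign. Leaving out 1 library, the correlation with Fos ranged from -0.306 to 0.396 for Homer1 and from -0.069 to 0.545 for Bdnf. It changed sign for Homer1 without cKO replicate 1 (0.396), without control replicate 1 (0.00653) and in deviations from the group means (0.114), and for Bdnf without control replicate 2 (-0.0337) and control replicate 3 (-0.069). The cause was not tested. Over all genes tested, same-numbered libraries did not deviate together (correlations 0.0052 to 0.0487), so the numbers were not read as pairs. In the fast genes, replicate 2 was highest for 18 of 26 in cKO and 20 in control, and replicate 3 lowest for 19 and 15. Many of these genes move together, so the counts are not separate observations and do not show pairing. Whether the numbers are pairs was not tested. With the replicate block, 10 of the 35 reached an unadjusted p under 0.05, against 4.07% of all genes, and 0 passed after adjustment (lowest adjusted p 0.33). All 10 were fast genes and higher in cKO. The block uses the same order of libraries, so these 10 are not separate observations either. Depth limits Atf3 and Maff most, with 5 to 31 reads per library.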
